A study of Rattus norvegicus with 12 samples.

Results

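The genes described here encode the subunits, regulators and assembly factors of the proteasome. They were taken as every gene of the expression table whose name begins with Psma to Psmg followed by a digit, with the 3 immunoproteasome genes Psmb8, Psmb9 and Psmb10 left out of the set and shown only for comparison. The rule gave 44 of the 29539 genes in the table: 7 alpha and 7 beta subunits of the 20S core, 6 ATPases, 11 lid and other non-ATPase subunits, 5 activators or regulators, 5 assembly factors and 3 genes that only carry a proteasome-type name (Psmc3ip, Psme3ip1 and Psme1-ps1). The rule goes by gene name alone.

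RNA came from red blood cells (RBCs) of male wild type Wistar rats aged 11 weeks, and each rat's blood was split into aliquots for the 3 conditions, although no source used here ties a replicate number to a rat. The 3 conditions, with 4 total RNA-Seq libraries each, were Cont (purified on the day of sampling), 10 d and 20 d, the stored ones being whole blood mixed with the anticoagulant CPDA (citrate, phosphate, dextrose and adenine) and kept at 4 °C for 10 or 20 days before purification. CPDA was also in the Cont blood, and RBCs were purified by taking off plasma and buffy coat and washing in PBS, so white cells and platelets were depleted by centrifugation and not by a sort. The length of storage and the date on which a sample was purified are confounded and cannot be told apart, and p-values measure the spread between these libraries.

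The proteasome is the barrel-shaped protease that breaks down proteins tagged with ubiquitin. Alpha and beta rings form its core, the beta subunits Psmb5, Psmb6 and Psmb7 carry the cutting sites, and caps of ATPases and non-ATPase subunits bind, unfold and feed in the substrate. Developing red cells use it while they discard unneeded proteins, and mature RBCs, which have no nucleus and make no new RNA, keep proteasomes together with leftover transcripts.

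The 4 genes that were higher after both storage times were the ubiquitin receptor Psmd4, the lid subunit Psmd8 and the catalytic subunits Psmb6 and Psmb7, and the 250 bases before their annotated starts are printed because these are the genes called at both times. None of the 4 was called with library size alone, and Psmd4, Psmd8 and Psmb6 were negative at 10 d when scaled to red cell genes. The sequences are those of RefSeq for the rat build GRCr8, 5′ to 3′ on the gene's own strand, at chr2:185297202-185297451 (minus strand) for Psmd4, chr1:93608690-93608939 (minus strand) for Psmd8, chr10:55737638-55737887 (plus strand) for Psmb6 and chr3:42827471-42827720 (minus strand) for Psmb7. Capitals mark a match, on either strand, to the antioxidant response element core TGACNNNGC, the CCAAT box CCAAT or the GATA core GATAA, 3 motifs that do not overlap in these windows.
Psmd4: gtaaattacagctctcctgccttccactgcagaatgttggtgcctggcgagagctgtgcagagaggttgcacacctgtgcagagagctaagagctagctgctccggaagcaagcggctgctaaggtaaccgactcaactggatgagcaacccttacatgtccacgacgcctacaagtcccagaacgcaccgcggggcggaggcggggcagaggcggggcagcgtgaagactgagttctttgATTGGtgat
Psmd8: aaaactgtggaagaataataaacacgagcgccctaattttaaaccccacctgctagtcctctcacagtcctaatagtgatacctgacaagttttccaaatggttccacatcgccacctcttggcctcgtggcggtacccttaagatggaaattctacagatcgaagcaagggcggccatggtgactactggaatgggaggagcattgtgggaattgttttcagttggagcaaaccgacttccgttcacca
Psmb6: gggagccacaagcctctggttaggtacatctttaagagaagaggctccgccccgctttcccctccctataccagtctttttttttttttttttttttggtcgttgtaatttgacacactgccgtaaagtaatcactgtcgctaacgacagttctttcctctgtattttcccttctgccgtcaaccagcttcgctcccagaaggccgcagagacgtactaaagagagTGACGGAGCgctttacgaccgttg
Psmb7: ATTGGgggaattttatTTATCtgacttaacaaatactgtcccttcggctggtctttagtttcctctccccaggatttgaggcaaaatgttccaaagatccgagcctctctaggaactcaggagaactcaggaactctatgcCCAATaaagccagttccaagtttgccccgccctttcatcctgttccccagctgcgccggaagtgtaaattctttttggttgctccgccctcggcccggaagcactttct
The 4 windows had no motif in common. Psmd4 held 1 CCAAT box in reverse, beginning 9 bases before the start, Psmb6 held 1 antioxidant response element core 24 bases before it, Psmb7 held 2 CCAAT boxes and 1 GATA core, and Psmd8 held none of the 3. Among the 39 proteasome genes with a RefSeq promoter, CCAAT was found in 18 (46.2%), against 34.0% of all 33469 promoters of the same length. TGACNNNGC was found in 5 (12.8% against 10.1% of all promoters), namely Psmb2, Psmb5, Psmb6, Psmd1 and Psme4, and GATAA in 9 (23.1% against 23.5%).

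The libraries held 65735930 to 85996710 counts, of which the 4 most abundant genes took 85.3% to 88.0%, and proteasome genes had 11492 to 15373 counts per library. The RBC label was borne out by the 7 matched red cell genes, which summed to 249200 to 337800 TPM (the length-corrected abundance given by the authors) in every library, nearly all of it from alpha globin Hba-a2, the other 6 genes summing to 1830 to 2850 TPM. In Cont, 10 neutrophil genes summed to 111.6 to 209.6 TPM and 8 monocyte genes to 44.6 to 97.4 TPM, against 185.4 to 239.0 TPM for the 44 proteasome genes. Over the 12 libraries no matched gene of the marker lists was at 0 throughout. By name, 7 of 12 red cell genes, 9 of 10 T cell genes and 8 of 10 platelet genes were matched. Hba-a1, Hbb, Alas2, Ca1 and Ca2 were the red cell genes without a match, and their levels were not examined.

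Levels of the proteasome transcripts differed widely, even between subunits that enter the complex in equal numbers. Of the 44 genes, 5 had a mean TPM of at least 10 over the 12 libraries, 20 had at least 1 and 24 had less than 1. The most abundant were Psma6, an alpha subunit of the core, with 46.6 TPM, Psmd4, which binds ubiquitin chains, with 40.6 TPM, and Psmf1, which encodes the proteasome inhibitor PI31, with 37.0 TPM. Psmd8 followed with 11.5 TPM and Psme4, which encodes the activator PA200, with 11.2 TPM. These 5 genes together made up 72.4% ± 2.53 of the summed proteasome TPM in Cont, 73.9% ± 1.56 at 10 d and 74.4% ± 1.85 at 20 d (SD, n = 4 each). The order of the levels was almost the same in the 3 conditions, with Spearman's rho of 0.99 between 10 d and Cont, 0.99 between 20 d and Cont and 0.99 between 20 d and 10 d, as a description over 44 genes of the same libraries.

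**Figure D1:**
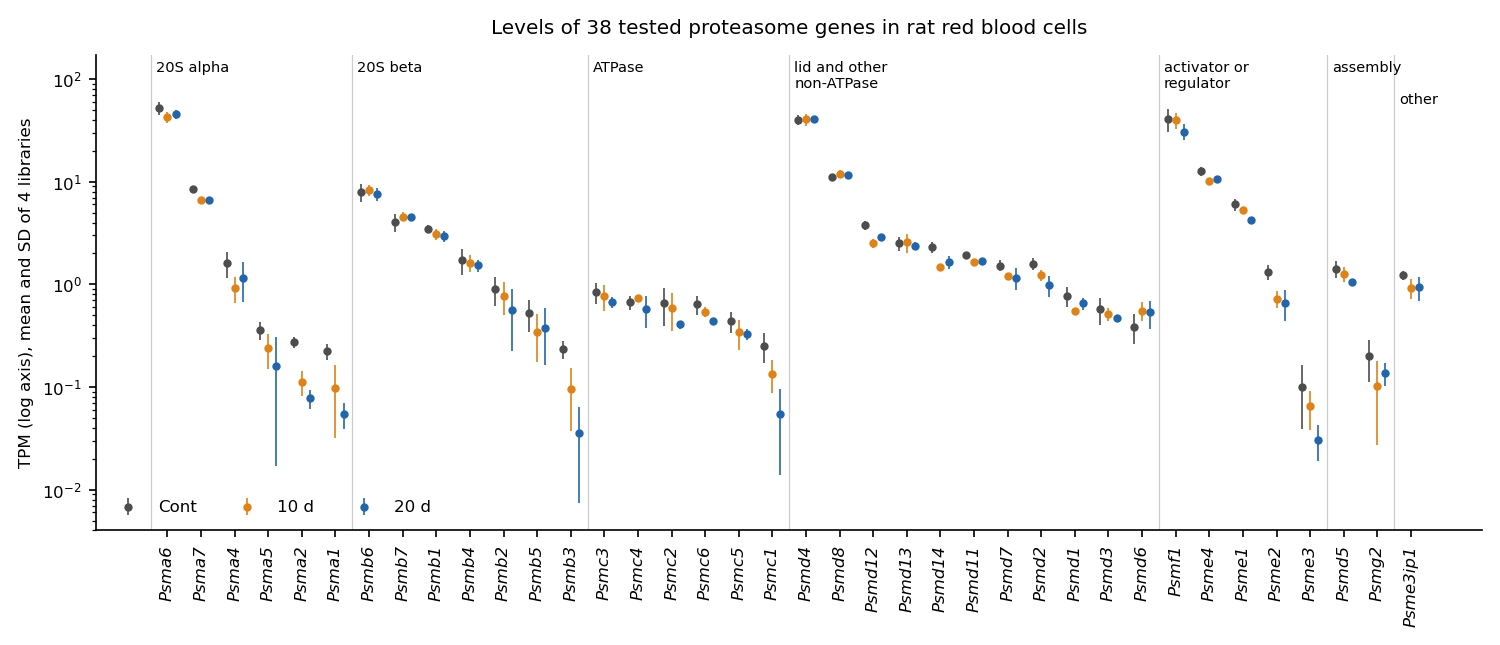
Mean TPM on a log axis for the 38 tested proteasome genes, grouped by role, with points for Cont, 10 d and 20 d and bars for the SD of 4 libraries. Psma6, Psmd4 and Psmf1 stood near 40 TPM while their class mates reached down to 0.125 TPM (Psma1), 0.491 TPM (Psmd6) and 0.065 TPM (Psme3).

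The spread within a class was large. On the TPM scale, which is corrected for transcript length, Psma6 was 372 times as high as Psma1 among the tested alpha subunits, and Psmb6 was 65.1 times as high as Psmb3 among the beta subunits. RefSeq lists 5 entries under names derived from Psma6, 0 for Psma1, 3 for Psmb6 and 10 for Psmb3. Reads may be shared with such near copies, and their part in these ratios was not tested. The ATPases, which form a ring of one copy of each, were all low and close to one another, between 0.147 TPM for Psmc1 and 0.758 TPM for Psmc3, a ratio of 5.15. The widest class was that of the activators and regulators, in which Psmf1 was 565 times as high as Psme3.

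Of the 44 genes, 38 passed the filter on low counts and were tested together with 8344 other genes. The filter asks for enough counts in as many libraries as a condition holds, so a scarce gene could pass through the condition in which it was highest. The genes that did not pass were Psma8, the testis-type alpha subunit, with 4 counts over all 12 libraries, the assembly chaperones Psmg1, Psmg3 and Psmg4 with 38, 62 and 10 counts, Psmc3ip with 60 counts and the pseudogene Psme1-ps1 with 1 count. A change in these genes was not detectable at this depth.

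At 10 d, 4 of the 38 tested genes were higher than in Cont and 0 were lower by edgeR's quasi-likelihood test at a Benjamini-Hochberg adjusted p under 0.05. This is 10.5% higher, against 7.87% of all 8382 tested genes that were higher and 5.67% that were lower. The genes that rose were Psmb6, Psmb7, Psmd4 and Psmd8, by 0.40 to 0.56 on the log2 scale, and the median log2 fold change of the 38 genes was 0.09, against 0.00 for all tested genes. At an unadjusted p under 0.05 the count in either direction was 9, or 23.7%, close to the 25.0% of all tested genes, and DESeq2 and edgeR's likelihood ratio test each called Psma2 lower (7.74% and 7.38% of all tested genes). Without Cont replicate 4 the number higher was 2. When genes had to reach 1 CPM in 4 or more libraries, 2 genes were higher (Psmd4 and Psmd8) and 1 was lower (Psmd12), against 9.41% and 13.1% of all genes so tested.

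At 20 d, 9 of the 38 genes were higher than in Cont (23.7%, against 12.8% of all tested genes) and 3 were lower (7.89%, against 21.1%). Psma6, Psmb6, Psmb7, Psmd4, Psmd6, Psmd8, Psmd11, Psmd13 and Psme4 rose, and Psma2, Psmb3 and Psmc1 fell. At an unadjusted p under 0.05 the count in either direction was 14, against 42.6% of all tested genes. The median log2 fold change of the 38 genes was 0.09, against -0.01 for all tested genes. Over the 38 genes, the 4 libraries of 20 d lay above the 4 of Cont in 7, against 11.4% of all tested genes, and below them in 4, against 20.0%. The 7 are the genes that rose other than Psmb6 and Psmd6, and the 4 are the genes that fell and Psma1. Without Cont replicate 4 the number higher was 5, and when genes had to reach 1 CPM in 4 or more libraries, which left 20 proteasome genes and none of the 3 that fell, it was 3 (Psmb7, Psmd4 and Psmd8), against 9.85% of all genes so tested. DESeq2, edgeR's likelihood ratio test, library size alone and red cell gene scaling also called Psma1 lower.

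These directions are relative to the bulk of the other genes, since TMM scaling (edgeR's weighted trimmed mean of M-values) sets the median change near 0. With library size alone the median of all tested genes moved to -0.35 at 10 d and -0.39 at 20 d, 0 proteasome genes were called higher (1.17% and 1.18% of all) and 6 of 38 at 10 d and 8 of 38 at 20 d were called lower (22.7% and 34.7% of all), and Psma6, Psmd11 and Psme4 changed sign at 20 d. Against 11 red cell and reticulocyte genes other than globins, a scaling chosen after seeing the data, the medians of all tested genes were -0.51 and -0.39, 0 proteasome genes were higher (0.847% and 1.22% of all), and 9 of 38 at 10 d and 8 of 38 at 20 d were lower (41.4% and 35.5% of all). Psma2, Psmb3 and Psmc1 were called lower at 20 d under each of these scalings, whereas no proteasome gene was called higher relative to the red cell genes at either time. Psma1, Psmd2, Psme1, Psme2 and Psme3 were also called lower at 20 d with library size alone and with red cell gene scaling. The same filter on low counts was used in each, so these fits cannot show what it contributed. In bulk RNA, fewer cells of a type and less RNA per cell cannot be told apart.

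Markers of other blood cells moved between the conditions as well. Their summed CPM (counts relative to the TMM-scaled library size) at 20 d against Cont was 2.22 to 4.74 against 42.0 to 66.4 for 10 neutrophil genes, 1.41 to 3.10 against 40.3 to 72.3 for 8 monocyte genes, 0.0465 to 0.227 against 3.77 to 4.79 for 9 T cell genes, 0.195 to 0.465 against 4.496 to 5.96 for 8 B cell genes and 1.83 to 4.29 against 19.7 to 31.9 for 4 pan-leukocyte genes. At 10 d the sums were 8.43 to 25.9, 4.09 to 18.6, 0.777 to 0.878, 6.84 to 8.60 and 9.41 to 14.8 CPM for the same lists. Every tested leukocyte gene of these lists was lower at 20 d than in Cont (7 of 7 neutrophil, 4 of 4 monocyte, 6 of 6 T cell, 7 of 7 B cell and 4 of 4 pan-leukocyte genes), against 21.1% of all tested genes. At 10 d 6, 4, 6, 0 and 4 of them were lower (5.67% of all) and 2 B cell genes were higher (7.87% of all). Scarce genes of these lists could pass the filter through the condition in which they were highest. With no filter on low counts, the numbers lower at 20 d were 7 of 10, 5 of 8, 9 of 9, 7 of 8 and 4 of 4 for the same lists, against 9.54% of all genes so tested. The 8 platelet genes summed to 2.96 to 3.39 CPM at 10 d and 0.735 to 0.932 CPM at 20 d, against 0.995 to 1.15 CPM in Cont. Of the 7 red cell genes, 7 were higher at 10 d and 6 at 20 d, with medians of 0.39 and 0.42 that became 0.05 and 0.03 with library size alone. Of the 5 reticulocyte genes 4 and 2 were higher, with medians of 0.42 and 0.24 that became 0.07 and -0.17. The shares of all tested genes that were higher were 7.87% at 10 d and 12.8% at 20 d. The part of these cells in the proteasome results was not tested.

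**Figure D2:**
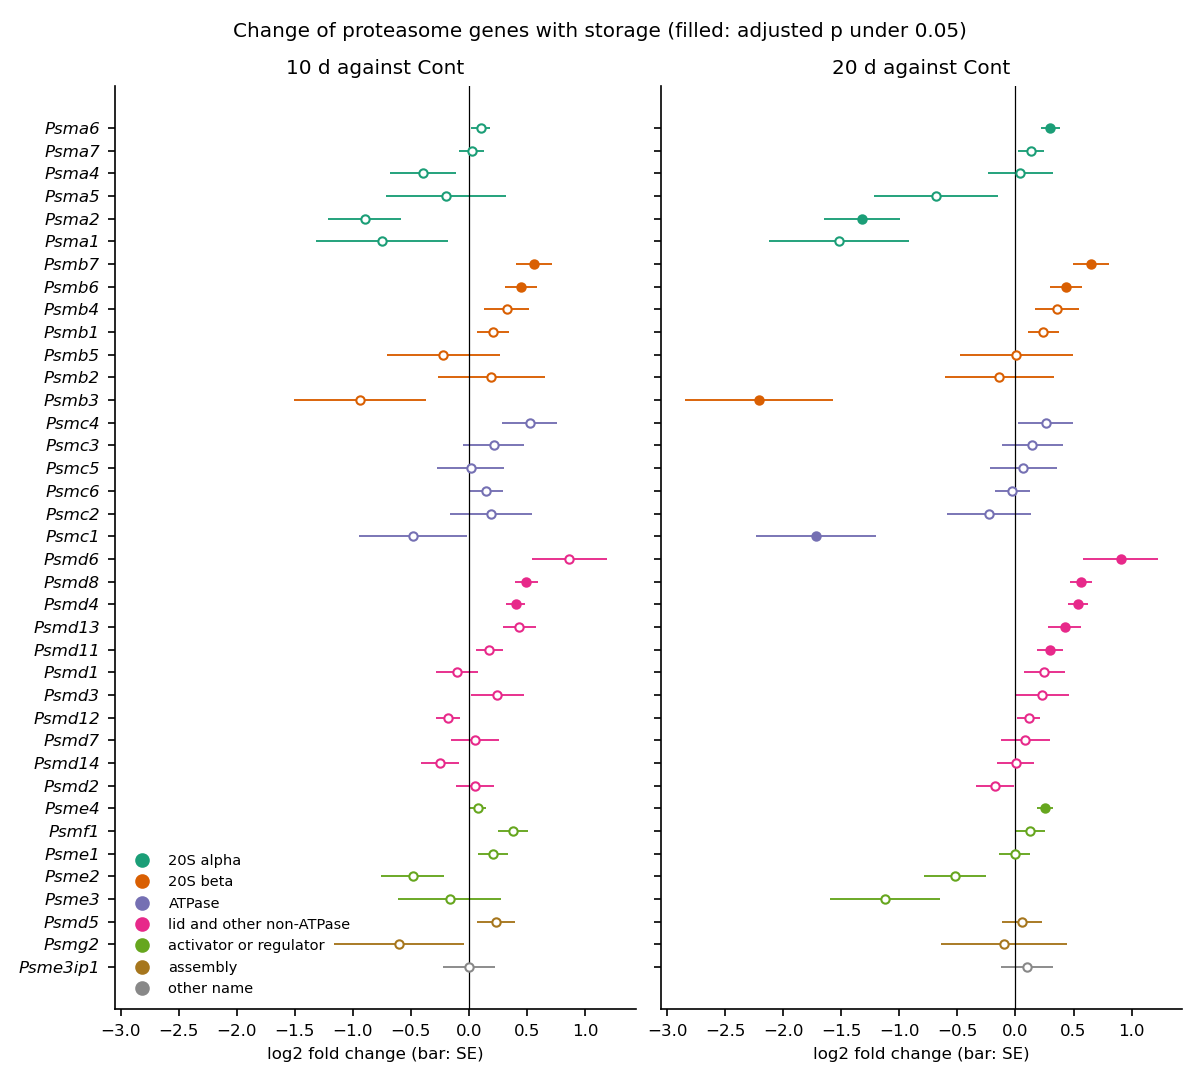
Log2 fold change with its standard error for the 38 tested proteasome genes at 10 d against Cont and at 20 d against Cont, coloured by role and filled where the adjusted p was under 0.05. At 20 d the 9 genes that rose changed by 0.26 to 0.91 and the 3 that fell by -2.21 to -1.32; with library size alone no gene was called higher and Psma6, Psmd11 and Psme4 turned negative.

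Among the alpha subunits, which form the outer rings and the gate of the core, 1 of 6 tested genes rose at 20 d (Psma6) and 1 fell (Psma2), and none was called at 10 d (1 at an unadjusted p under 0.05, by edgeR). Library size alone called Psma2 and Psma7 lower at 10 d (22.7% of all tested genes). Red cell gene scaling called Psma2, Psma4, Psma6 and Psma7 lower at 10 d (41.4% of all). For this and the following classes, the shares of all tested genes in the main fit were 7.87% higher and 5.67% lower at 10 d and 12.8% higher and 21.1% lower at 20 d. These shares depended on level. Among all tested genes with a mean TPM of at least 1 they were 20.4% higher and 3.83% lower at 10 d and 34.6% higher and 7.34% lower at 20 d. Psma6 (chr6:72765473-72796554 in mRatBN7.2, the build of the table) had 26.3, 28.8, 27.5 and 28.3 CPM in Cont, 26.7, 30.2, 29.2 and 32.7 CPM at 10 d and 29.5, 35.8, 34.1 and 37.1 CPM at 20 d. Every 20 d library was above every Cont library, while 10 d overlapped both. The log2 fold change at 20 d against Cont was 0.30 (SE 0.08, 1.23-fold, adjusted p = 0.0096 by edgeR), and it was -0.09 with library size alone or with red cell gene scaling and 0.12 with the stricter filter on low counts. On the TPM scale Psma6 averaged 45.3 ± 4.92 at 20 d and 52.2 ± 7.27 in Cont (SD, n = 4 each).

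Psma2 (chr17:50551924-50564938) moved the other way at a far lower level, 0.154 TPM. It had 0.442, 0.314, 0.375 and 0.408 CPM in Cont, 0.205, 0.181, 0.270 and 0.166 CPM at 10 d and 0.135, 0.195, 0.155 and 0.128 CPM at 20 d, which is 31 to 39, 12 to 19 and 9 to 13 counts per library. The libraries of both storage times lay below all Cont libraries. The log2 fold change was -1.32 (SE 0.32, 0.401-fold, adjusted p = 0.0041) at 20 d and -0.90 (SE 0.31, adjusted p = 0.067) at 10 d against Cont. Of the others, Psma1 had -1.52 at 20 d (adjusted p = 0.062), with 20 d below Cont in every library, and was called lower by DESeq2, by the likelihood ratio test, with library size alone and with red cell gene scaling. Psma5 had -0.69, Psma4 0.04 and Psma7 0.13, none of which passed the test.

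Among the beta subunits, 2 of 7 rose at both times (Psmb6 and Psmb7) and 1 fell at 20 d (Psmb3). Psmb6 encodes the caspase-like catalytic subunit and lies at chr10:55239241-55241586. It had 2.78, 3.14, 2.20 and 2.11 CPM in Cont, 3.12, 3.57, 3.51 and 3.75 CPM at 10 d and 4.15, 3.15, 3.50 and 3.02 CPM at 20 d. Cont replicate 2 overlapped the lowest libraries of both storage times, and the rest of the Cont libraries were lower than all stored ones. The log2 fold change was 0.45 (SE 0.14, 1.36-fold, adjusted p = 0.037) at 10 d and 0.43 (SE 0.14, 1.35-fold, adjusted p = 0.021) at 20 d. Neither call held with library size alone, the 10 d value was -0.06 with red cell gene scaling, and leaving out Cont replicate 4 gave adjusted p = 0.137 at 10 d and 0.053 at 20 d. The 10 d call also ended without Cont replicate 3 or 10 d replicate 2, 3 or 4, at 0.068 to 0.128, with DESeq2 (0.065), with RLE size factors (0.074) and with the stricter filter (0.126). The 20 d call also ended without 20 d replicate 1, at 0.075, and with the stricter filter, at 0.213.

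Psmb7, the trypsin-like catalytic subunit (chr3:22354698-22417937), had the larger log2 fold changes of the pair, a difference that was not tested. It had 2.65, 1.38, 1.85 and 1.75 CPM in Cont, 3.06, 2.73, 2.94 and 2.48 CPM at 10 d and 3.28, 2.86, 3.04 and 2.79 CPM at 20 d. All 20 d libraries exceeded Cont, and at 10 d only replicate 4 fell below the highest Cont library. The log2 fold change was 0.56 (SE 0.16, 1.47-fold, adjusted p = 0.023) at 10 d and 0.65 (SE 0.16, 1.57-fold, adjusted p = 0.0036) at 20 d, and 0.22 and 0.28 with library size alone, where neither was called. The 10 d call ended without Cont replicate 2, 3 or 4 or 10 d replicate 1 or 3, at adjusted p of 0.055 to 0.097. The gene overlaps Nek6 on the opposite strand, which had a mean TPM of 0.0335, and whether counting used strand is not given in the sources used here.

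Psmb5, the chymotrypsin-like catalytic subunit (chr15:28072781-28077440), was far lower than its catalytic partners and was not called. It had 0.181, 0.203, 0.246 and 0.129 CPM in Cont, 0.0586, 0.195, 0.228 and 0.166 CPM at 10 d and 0.0601, 0.195, 0.310 and 0.198 CPM at 20 d, from 4 to 21 counts per library. The conditions overlapped fully, and replicate 1 was the lowest library at both storage times. Psmb5 had log2 fold changes of -0.22 (SE 0.49) at 10 d and 0.01 (SE 0.48) at 20 d, so that a change of the size seen in Psmb6 and Psmb7 was not detectable at this depth.

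Psmb3, a structural beta subunit (chr10:82697425-82704521), is given per library although it was picked after its values were seen. It had 32, 33, 19 and 20 counts in the Cont libraries, 2, 10, 13 and 17 counts at 10 d and 8, 4, 4 and 0 counts at 20 d, where a count of 0 allows up to 3. Its log2 fold change at 20 d was -2.21 (SE 0.64, 0.216-fold, adjusted p = 0.012). It overlaps Pip4k2b on the opposite strand (mean TPM 0.150) and RefSeq lists 10 related entries under names derived from it, so its reads may be shared with near copies. Psmb1, Psmb4 and Psmb2 had 0.24, 0.36 and -0.14 at 20 d and did not pass the test.

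**Figure D3:**
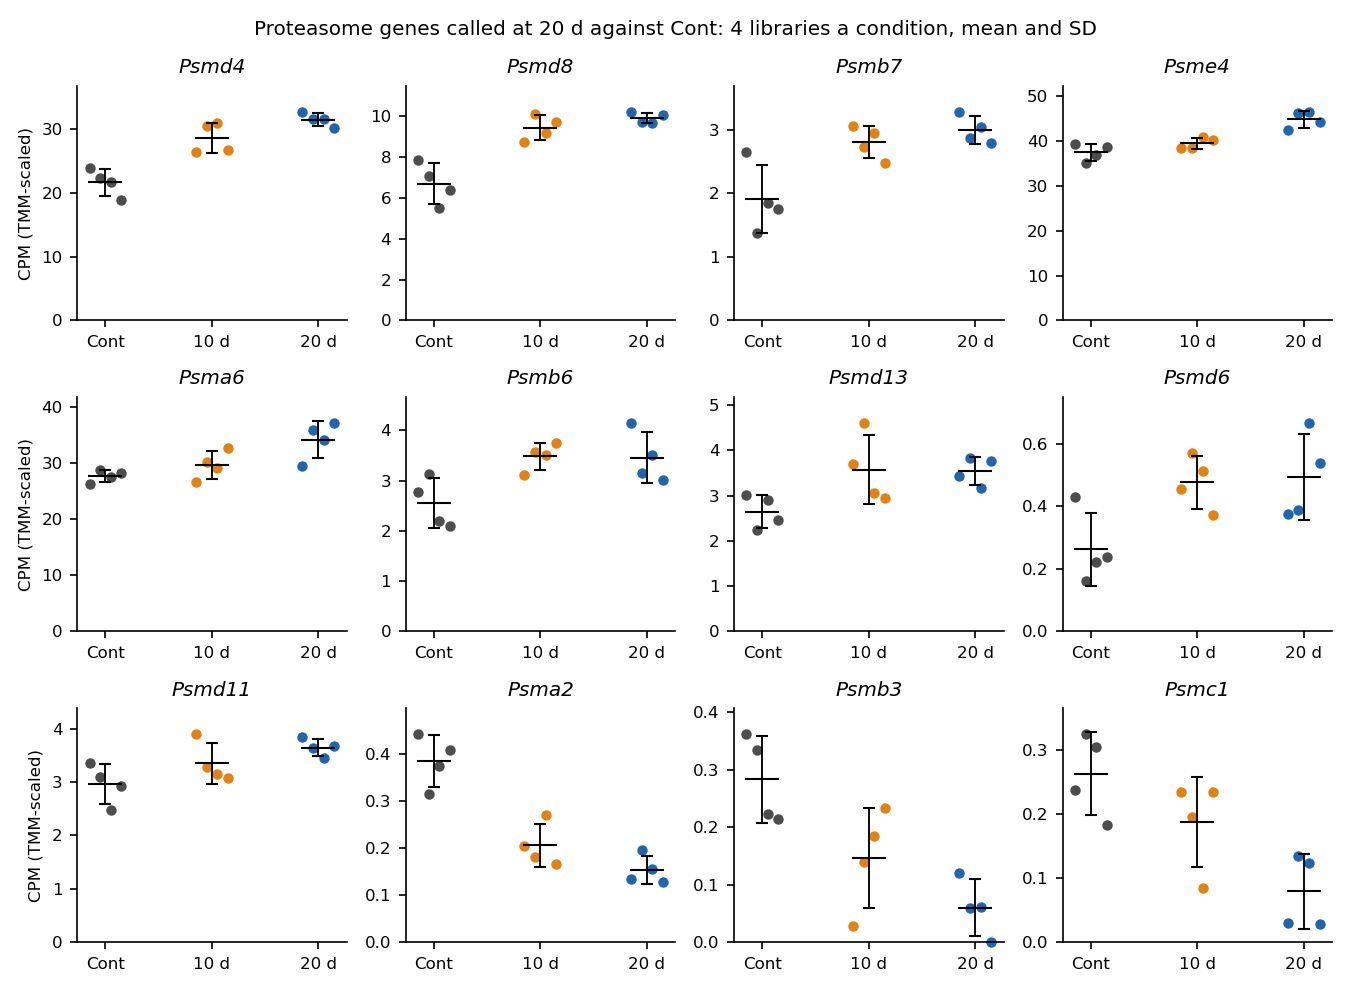
CPM after TMM scaling in each of the 12 libraries for the 12 proteasome genes called at 20 d against Cont, with the mean and SD of each condition; every axis starts at 0. Psmd4 and Psmd8 were above Cont in all 8 stored libraries, Psmb6 and Psmd6 overlapped Cont, and Psma2, Psmb3 and Psmc1 had at most 0.442, 0.362 and 0.324 CPM in any library; with library size alone Psma6, Psmd11 and Psme4 were lower at 20 d than in Cont.

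The ATPases form the ring that unfolds substrates, and 1 of 6 was called, Psmc1, which fell at 20 d. Psmc1 (chr6:119392855-119410123) had 0.238, 0.324, 0.305 and 0.183 CPM in Cont, 0.234, 0.195, 0.0853 and 0.234 CPM at 10 d and 0.0301, 0.135, 0.124 and 0.0283 CPM at 20 d, the last from 2 to 9 counts. All 20 d libraries were below all Cont libraries, with the 10 d libraries between and overlapping both. The log2 fold change was -1.72 (SE 0.52, 0.305-fold, adjusted p = 0.016) at 20 d, and without 20 d replicate 4 it was -1.42 (adjusted p = 0.051). Psmc1 overlaps Nrde2 on the opposite strand (mean TPM 0.123).

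Psmc3, the most abundant ATPase (chr3:77031825-77043358), had 0.906, 0.537, 0.539 and 0.430 CPM in Cont, 0.469, 0.669, 0.796 and 0.855 CPM at 10 d and 0.767, 0.615, 0.543 and 0.737 CPM at 20 d. The conditions overlapped, and the highest and the lowest library were both Cont. Its log2 fold change was 0.21 (SE 0.26) at 10 d and 0.14 (SE 0.26) at 20 d. Psmc4 had the largest positive value of the class, 0.52 at 10 d (SE 0.23, adjusted p = 0.17), and Psmc2, Psmc5 and Psmc6 lay between -0.23 and 0.19 in both comparisons with Cont.

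The lid and other non-ATPase subunits recognise, position and strip ubiquitinated substrates, and 2 of 11 rose at 10 d and 5 of 11 at 20 d, with 0 lower at either time. The counts at an unadjusted p under 0.05 in either direction were 4 and 5 by edgeR. The median log2 fold change of the class was 0.18 at 10 d and 0.25 at 20 d, and with library size alone none of the 5 was called higher, Psmd12 and Psmd14 were called lower at 10 d and Psmd2 at 20 d. With red cell gene scaling Psmd1, Psmd12 and Psmd14 were lower at 10 d and Psmd2 at 20 d. Psmd4 (chr2:182598934-182608194) had the smallest p of the proteasome genes over the 3 conditions and at 20 d. It had 23.9, 22.3, 21.7 and 18.9 CPM in Cont, 26.4, 30.4, 31.0 and 26.7 CPM at 10 d and 32.7, 31.6, 31.6 and 30.2 CPM at 20 d. The 8 stored libraries all lay above Cont. Its log2 fold change was 0.40 (SE 0.08, 1.32-fold, adjusted p = 0.0033) at 10 d and 0.54 (SE 0.08, 1.45-fold, adjusted p = 8.1e-05) at 20 d, and at 20 d it was 0.15 both with library size alone and with red cell gene scaling, uncalled in either, while the 10 d value was -0.11 with red cell gene scaling. On the TPM scale Psmd4 averaged 41.2 ± 1.76 at 20 d and 40.1 ± 4.66 in Cont (SD, n = 4 each).

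The 4 further lid genes that rose were picked for their values. Psmd8 (chr1:84474378-84481209) had 7.85, 7.07, 5.52 and 6.40 CPM in Cont, 8.73, 10.1, 9.20 and 9.72 CPM at 10 d and 10.2, 9.73, 9.66 and 10.1 CPM at 20 d, with no overlap between Cont and either storage time. Its log2 fold change was 0.49 (SE 0.10, adjusted p = 0.0022) at 10 d, where red cell gene scaling gave -0.02, and 0.56 (SE 0.10, adjusted p = 2.2e-04) at 20 d. Psmd13 and Psmd11, both scaffold subunits of the lid, had 0.42 (SE 0.14, adjusted p = 0.028) and 0.30 (SE 0.11, adjusted p = 0.04998) at 20 d, and Psmd11 turned to -0.08 with library size alone. Psmd6, another lid scaffold, had the largest positive value, 0.91 (SE 0.32, adjusted p = 0.038), from 25 to 43 counts at 20 d and 16 to 38 counts in Cont. Its span holds 86735 bases of overlap with Atxn7 on the opposite strand (mean TPM 0.353). The Psmd6 call ended without Cont replicate 2, 3 or 4 or without 20 d replicate 3 or 4, at adjusted p of 0.067 to 0.12, and the Psmd13 call without Cont replicate 2 or 4 or 20 d replicate 2 or 4, at 0.053 to 0.071. The Psmd11 call, at the edge of the threshold, ended in 9 of the 12 fits that left out 1 library, at 0.050 to 0.103, with DESeq2 (0.053) and with the likelihood ratio test (0.059).

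The other 6 genes of the class did not pass the test. They include Psmd14, the deubiquitinase that takes ubiquitin chains off the substrate, with 0.00 at 20 d (SE 0.16), and the large base subunits Psmd1 with 0.25 (SE 0.18) and Psmd2 with -0.17 (SE 0.17). Psmd3, Psmd7 and Psmd12 had 0.23, 0.09 and 0.11. At 20 d against 10 d, Psmd12 had 0.30 (SE 0.10, adjusted p = 0.057), with every 20 d library above every 10 d library.

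Among activators and regulators, Psme4 rose at 20 d in the main fit and the other 4 genes were not called. Both library size alone and red cell gene scaling called Psme2 and Psme4 lower at 10 d (22.7% and 41.4% of all tested genes). At 20 d both called Psme1, Psme2 and Psme3 lower (34.7% and 35.5% of all). Psme4 (chr14:104505716-104609408) had 39.5, 35.2, 36.9 and 38.7 CPM in Cont, 38.6, 38.5, 41.0 and 40.2 CPM at 10 d and 42.6, 46.2, 46.5 and 44.3 CPM at 20 d. The 20 d libraries lay above all others. Its log2 fold change was 0.26 (SE 0.07, 1.20-fold, adjusted p = 0.0066) at 20 d against Cont, but -0.13 with library size alone or red cell gene scaling, and 0.18 (SE 0.07, adjusted p = 0.076) at 20 d against 10 d.

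Psmf1 (chr3:140235373-140260546) was not called at either time, and its libraries overlapped between the conditions, but with no filter on low counts it was called higher at 10 d. With the replicate number as a block it was called higher at 10 d than in Cont and lower at 20 d than at 10 d. It had 17.2, 22.1, 24.7 and 23.9 CPM in Cont, 23.3, 29.8, 31.2 and 30.1 CPM at 10 d and 18.2, 24.9, 26.3 and 26.3 CPM at 20 d. Replicate 1 was the lowest library in every condition. Psmf1 had log2 fold changes of 0.38 (SE 0.13, adjusted p = 0.060) at 10 d and 0.12 (SE 0.13, adjusted p = 0.51) at 20 d against Cont. Psme1 and Psme2, the subunits of the interferon-inducible activator PA28, had -0.01 (SE 0.13) and -0.52 (SE 0.27) at 20 d, and Psme3, the nuclear activator PA28 gamma, had -1.12 (SE 0.47, adjusted p = 0.076).

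Of the assembly factors, Psmd5, a chaperone of the base, and Psmg2, a chaperone of the alpha ring, could be tested, and neither was called. Psmd5 (chr3:18133717-18151029) had 1.29, 1.36, 1.14 and 0.903 CPM in Cont, 1.42, 1.58, 1.44 and 1.08 CPM at 10 d and 1.17, 1.17, 1.32 and 1.22 CPM at 20 d. The conditions overlapped. It had log2 fold changes of 0.23 (SE 0.17) at 10 d and 0.06 (SE 0.17) at 20 d, and Psmg2 had -0.60 (SE 0.56) and -0.10 (SE 0.54). Psme3ip1, the one tested gene outside the functional classes, had 0.00 (SE 0.22) and 0.10 (SE 0.22).

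Between 20 d and 10 d, 0 of the 38 genes were higher and 0 lower by edgeR's quasi-likelihood test, against 3.33% and 12.6% of all tested genes, with 4 at an unadjusted p under 0.05 (29.2% of all tested genes). DESeq2, and edgeR with RLE size factors, called 3 higher (Psma6, Psmd12 and Psme4; 6.74% and 6.06% of all) and 0 lower (13.5% and 11.6% of all), which are the 3 also called higher without Cont replicate 1, and edgeR's likelihood ratio test called 0 in both directions (3.19% and 15.7% of all). Over the 3 conditions at once, 0 genes passed an adjusted p under 0.0001, against 6.13% of all tested genes, while 10 passed 0.05 (33.7% of all), 13 had an unadjusted p under 0.05 (42.7% of all) and DESeq2 called 3 at the stricter threshold (15.6% of all). Psmd4 came nearest with an adjusted p of 2.2e-04.

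With TMM scaling, calls differed by level in the table as a whole, and proteasome genes were near the shares of all genes at their level. Of the 20 genes with a mean TPM of at least 1, 8 rose at 20 d (40%, against 34.6% of all tested genes at that level) and 0 fell (7.34% of all). At 10 d, 20% of them rose, against 20.4% of all. With library size alone no proteasome gene was called higher, and Psmd2 and Psme1 at 20 d and Psma7, Psmd12, Psmd14 and Psme4 at 10 d, all of at least 1 TPM, were called lower. Shares under 1 TPM are not given, since scarce genes such as Psmb3 and Psmc1 could pass the filter through Cont, where they were highest. The 3 genes that fell were at 0.121 to 0.154 TPM.

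**Figure D4:**
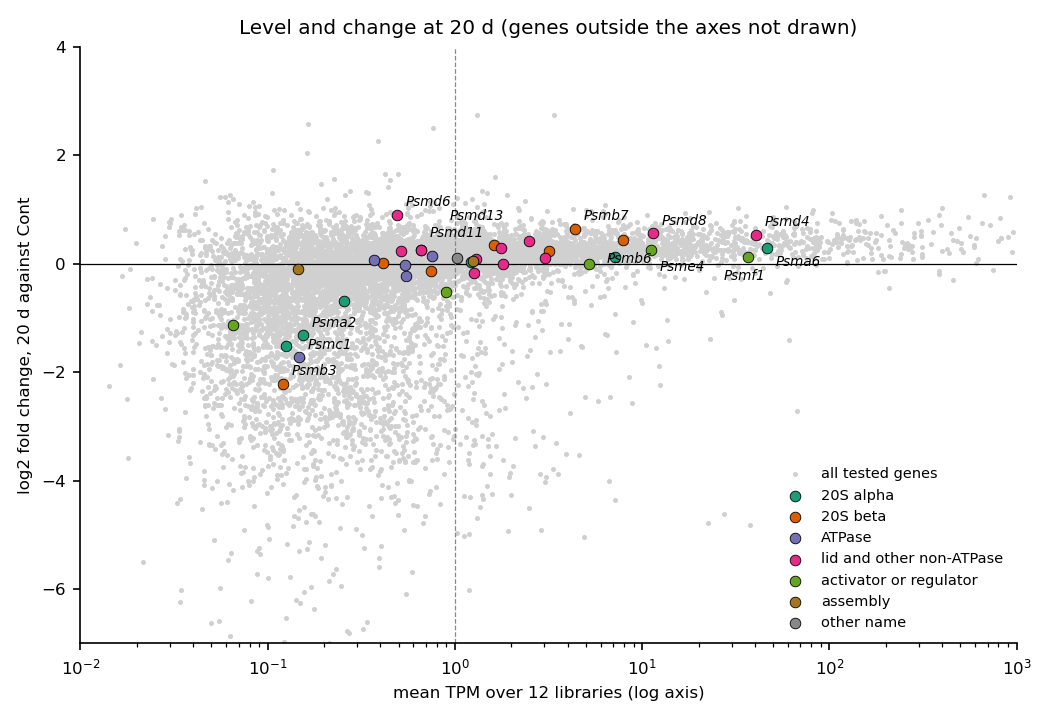
Log2 fold change at 20 d against Cont (vertical axis) by mean TPM over 12 libraries (log axis) for all tested genes in grey and the 38 proteasome genes in colour; a dashed line marks 1 TPM. Proteasome genes of at least 1 TPM lay between -0.17 and 0.65, and Psma2, Psmb3 and Psmc1, at 0.121 to 0.154 TPM, were the called genes below 0; with library size alone the median of all genes was -0.39.

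Summed over the 44 genes, the direction depended on the scale. The sum was 156.0 ± 3.19 CPM in Cont, 179.9 ± 7.71 CPM at 10 d and 189.0 ± 6.20 CPM at 20 d after TMM scaling, with both storage times above Cont in every library. In TPM it was 215.5 ± 22.9 in Cont, 195.4 ± 20.1 at 10 d and 187.2 ± 10.8 at 20 d, with overlapping libraries. As a share of the summed TPM, the lid class took 30.9% ± 2.02 in Cont, 33.1% ± 1.52 at 10 d and 34.9% ± 2.31 at 20 d, and the ATPases took 1.64% ± 0.193, 1.59% ± 0.117 and 1.32% ± 0.081. The alpha class took 29.2% ± 0.915, 25.8% ± 1.12 and 28.4% ± 1.66, the beta class 8.75% ± 0.819, 9.60% ± 0.283 and 9.39% ± 0.841, and activators and regulators 27.9% ± 2.54, 28.6% ± 1.10 and 24.7% ± 1.80. Differences between classes were not tested.

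The immunoproteasome subunits Psmb8, Psmb9 and Psmb10 replace Psmb5, Psmb6 and Psmb7 in white blood cells, and they are shown beside them. At 20 d all 3 were lower than in Cont, with log2 fold changes of -3.44 (SE 0.67, adjusted p = 6.2e-04), -3.66 (SE 0.38, adjusted p = 1.2e-06) and -2.62 (SE 0.61, adjusted p = 0.0028) for Psmb8, Psmb9 and Psmb10. At 10 d Psmb9 was lower (-1.60, SE 0.31, adjusted p = 0.0019), and Psmb8 and Psmb10 had -1.05 and -0.80. The 3 genes were scarce, with a sum of 1.11 to 2.14 CPM in Cont and 0.06 to 0.24 CPM at 20 d. They could therefore pass the filter on low counts through Cont, where they were highest. Of the summed TPM of the 6 catalytic genes, the immunoproteasome genes made up 9.10% to 20.7% in Cont, 3.03% to 6.84% at 10 d and 0.383% to 2.17% at 20 d, with no overlap between the conditions. The sum of Psmb5, Psmb6 and Psmb7 was 12.4 ± 1.26 TPM in Cont, 13.2 ± 1.16 TPM at 10 d and 12.5 ± 1.30 TPM at 20 d (SD, n = 4 each). The difference in change between the sets was not tested, and the leukocyte markers given above were also lower at 20 d, while at 10 d the summed B cell markers were above Cont.

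**Figure D5:**
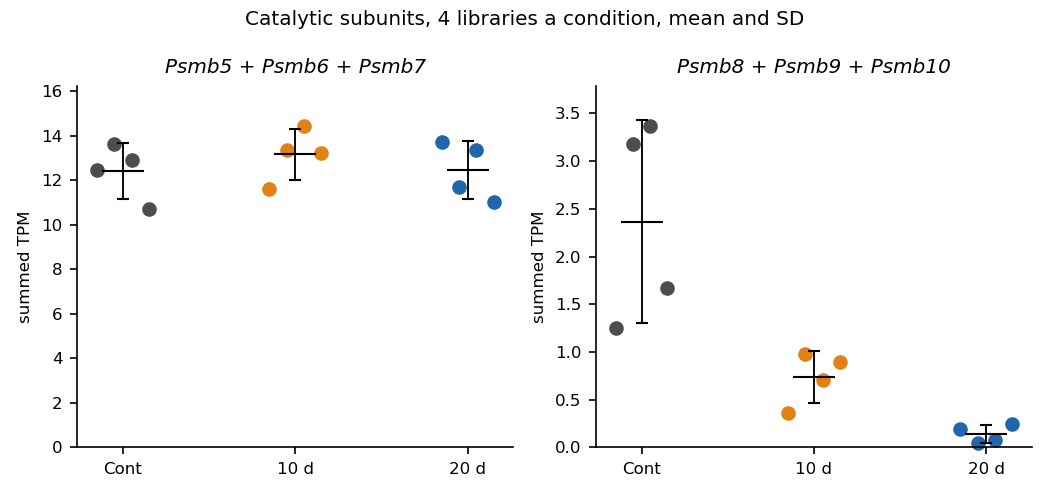
Summed TPM of the constitutive catalytic subunits (Psmb5, Psmb6 and Psmb7) and of their immunoproteasome counterparts (Psmb8, Psmb9 and Psmb10) in each library of Cont, 10 d and 20 d, with mean and SD; both axes start at 0. The constitutive sum lay between 10.7 and 14.4 TPM in all 12 libraries, while the immunoproteasome sum was 1.25 to 3.37 TPM in Cont, 0.363 to 0.979 TPM at 10 d and 0.045 to 0.244 TPM at 20 d.

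A list of 29 genes that serve the proteasome was examined beside it, of which 27 matched and 26 were tested. At 10 d, 5 rose (19.2%) and 1 fell (3.85%), and at 20 d again 5 rose and 1 fell, with medians of 0.14 and 0.16. Of all tested genes, 7.87% rose and 5.67% fell at 10 d, and 12.8% rose and 21.1% fell at 20 d. With library size alone the medians were -0.22 and -0.23, and 1 gene (Vcp, at 10 d) was called higher (1.17% of all at 10 d). That scaling called 6 genes at 10 d and 4 at 20 d lower, against 22.7% and 34.7% of all tested genes. The polyubiquitin gene Ubb, at 3812 TPM the most abundant of the list, rose at both times (0.25, SE 0.07, adjusted p = 0.023 at 10 d and 0.45, SE 0.07, adjusted p = 9.8e-05 at 20 d), as did the unfoldase Vcp (0.89 and 0.44) and the ubiquitin shuttle factor Ubqln1 (0.28 and 0.30). Ddi2, a protease that processes the proteasome regulator Nfe2l1, and Ubqln4 rose at 10 d (0.56 and 0.43) and were lower at 20 d than at 10 d (-0.53 and -0.36). Uchl5, a deubiquitinase of the cap, and Ufd1, a partner of Vcp, rose at 20 d (0.54 and 0.57). The transcription factor Nfe2l2 fell at both times (-0.86 and -1.30). At 10 d, Ubb and Ubqln1 were not called with RLE size factors, and Ubqln1 and Nfe2l2 were not called with no filter on low counts. With the stricter filter, only Ddi2 and Vcp were called higher at 10 d and only Ubb at 20 d (9.41% and 9.85% of all genes so tested). Akirin2 and Ube3a were lower at 10 d and Uba1 at 20 d (13.1% and 16.8% of all). Nfe2l1, which drives proteasome gene transcription when proteasomes fail, had 0.09 (SE 0.23) and -0.02 (SE 0.23), and the core maturation factor Pomp 0.37 (SE 0.17) and 0.28 (SE 0.17), neither of which passed the test. The ubiquitin ligase Ube3a was higher at 20 d than at 10 d (0.34). With red cell gene scaling no gene of the list was called higher than Cont (0.847% of all tested genes at 10 d and 1.22% at 20 d). Of the 26 tested genes, 11 at 10 d, Ubb among them, and 8 at 20 d were called lower, against 41.4% and 35.5% of all. Nfe2l2 was lower at both times under each scaling.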

How the data were processed

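Total RNA-Seq was done on rRNA-depleted RNA of purified RBCs. The authors mapped the paired-end reads to mRatBN7.2 in CLC Genomics Workbench and deposited raw counts per gene and TPM values, scaled by the authors to a common sum per library, which were used here for levels. Their RPKM and CPM columns (24 columns) and the deposited columns of fold changes and p-values from their own comparisons were not used. Whether reads or pairs were counted, and by strand, is not given in the sources used here.

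Counts were tested in R 4.3.3 with edgeR 4.0.16: filterByExpr, TMM scaling and glmQLFTest over all 12 libraries, with no block and Benjamini-Hochberg adjustment over 8382 genes, at 0.05 for pairs of conditions and 0.0001 for the 3 conditions, the study's threshold. DESeq2 1.42.0 served as an alternative, beside RLE factors, library size alone, a likelihood ratio test, other filters, a replicate block and leaving out each library. The script was tested on simulated data. TMM factors were 1.03 to 1.30 in Cont, 0.859 to 0.985 at 10 d and 0.864 to 0.949 at 20 d. No 2 libraries of a condition agreed within sampling noise (lowest chi-square per degree of freedom 14.4).

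Genes given per library were, in each functional class, the one with the smallest p over the 3 conditions and the one with the highest mean TPM, besides Psmb5, Psmb6 and Psmb7. Members, marker lists (red cell, reticulocyte, neutrophil, monocyte, T cell, B cell, platelet and pan-leukocyte) and the accessory list were chosen with earlier results of these data known. RefSeq GRCr8 held promoters for 39 of the 44 genes, and 18 of the 44 have RefSeq entries named as pseudogenes or like genes of theirs. Among these are Psmb6 with 3 such entries and Psmb7 and Psmd8 with 2 each, whose reads may be shared with the copies. The upper limit of 3 for a count of 0 reflects counting error only, whereas the tests also estimated the spread between libraries.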

Additional observations from a re-analysis of the deposited data

Results flagged for a closer look

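Psmb10, an immunoproteasome subunit shown beside the proteasome genes, had 0.237 CPM in 10 d replicate 2, from 17 counts, while the other 3 libraries of 10 d had 0.0552 to 0.0853 CPM. The gap to the nearest library was 0.834 of the whole range of the condition, above Dixon's critical value for 4 samples. Of 48 groups checked it was the 1 that stood apart in this way, and chance does this in about 1 of 20 groups. Psmb10 was called lower at 20 d than in Cont with and without this library. That comparison involves 10 d libraries only through the filter, the scaling and the shared estimate of the spread, so it cannot show what this library changes. In the main fit Psmb10 was not called at 10 d against Cont or at 20 d against 10 d.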

How the results depend on the processing

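The rises were not called under 2 other scalings, while Psma2, Psmb3 and Psmc1 were lower at 20 d under each scaling. Under the 2 other scalings Psma1, Psmd2, Psme1, Psme2 and Psme3 were lower at 20 d as well. Each scaling used the same filter, which scarce genes such as Psmb3 and Psmc1 could pass through Cont, so the scalings cannot show what the filter contributed. With no filter on low counts, Psma2, Psmb3 and Psmc1 were the 3 genes lower at 20 d (9.54% of all genes so tested). With library size alone, 0 genes were higher and 6 lower at 10 d, and 0 higher and 8 lower at 20 d. With red cell gene scaling, chosen after seeing the data, the numbers were 0 and 9 at 10 d, 0 and 8 at 20 d, and 3 higher at 20 d against 10 d (7.55% of all tested genes). Changes of sign with red cell gene scaling were Psmd8 -0.018, Psmd4 -0.11 and Psmb6 -0.064 at 10 d and Psma6 -0.091, Psmd11 -0.093 and Psme4 -0.13 at 20 d; with library size alone they were Psma6 -0.089, Psmd11 -0.082 and Psme4 -0.13 at 20 d. Requiring 1 CPM in 4 or more libraries left 20 genes, with 2 higher and 1 lower at 10 d and 3 higher and 0 lower at 20 d, since the genes that fell were not tested. Over the 3 conditions, DESeq2 called 3 (15.6% of all tested genes), the likelihood ratio test 2 (15.4%) and no filter 3 (7.06%), against 0 (6.13%). At 10 d, DESeq2 and the likelihood ratio test called 1 lower. At 20 d against 10 d, RLE factors and DESeq2 called 3 higher (6.06% and 6.74% of all) and no filter 1 (2.35% of all). Where no cause is given, the cause was not tested.

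Leaving out each library in turn gave 0 to 1 gene over the 3 conditions, 2 to 6 higher and 0 lower at 10 d, 5 to 10 higher and 2 to 4 lower at 20 d, and 0 to 3 higher and 0 lower at 20 d against 10 d. For the proteasome genes, the lowest numbers higher came without Cont replicate 4 at both times, the most without Cont replicate 1. Of all genes, 8579 to 8803 were tested in these fits and 252 to 606 were called over the 3 conditions. At 10 d 451 to 714 of all genes were higher and 292 to 606 lower, and at 20 d 928 to 1393 higher and 1515 to 1894 lower. At 20 d against 10 d, 120 to 532 were higher and 797 to 1109 lower.

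Replicate numbers are shared by the conditions and the paper calls its samples paired, but the rat behind a number is not stated. Whether same-numbered libraries came from the same rat is therefore not known, and the main test used no pairing. Same-numbered libraries correlated by 0.02 to 0.21, under 0.1 in some pairs, against -0.19 to 0.09 for other numbers. Of the 12 libraries, 7 correlated best with both libraries of their own number. With the replicate block, 3 genes were called over the 3 conditions (12.2% of all tested genes). At 10 d 6 were higher and 0 lower (11.1% and 7.62% of all), and at 20 d 9 were higher and 3 lower (16.4% and 22% of all). At 20 d against 10 d, 3 were higher and 1 lower (6.05% and 15.4% of all). Psmf1 was higher at 10 d than in Cont and lower at 20 d than at 10 d in that fit. Depth limits the 24 genes under 1 TPM most.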

Other observations

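Psma6, Psmb4 and Psmf1 were lowest in replicate 1 within each of the 3 conditions, which makes 3 of the 38 tested genes (7.89%), against 486 of all 8382 tested genes (5.8%). Another 5 of the 38 (13.2%, against 4.39% of all) were highest in replicate 1 in each condition. For replicates 2 and 4 no proteasome gene was lowest in all 3 conditions, and for replicate 3 it was Psmg2.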
